A study of Rattus norvegicus with 16 samples.

Results

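Vasopressin and oxytocin are the hormones of the neurohypophysis, and their genes *Avp* and *Oxt* were followed in the diencephalon of 16 rats. The members were all probe sets, the groups of short probes that report 1 transcript, whose listed gene was *Avp* or *Oxt*. There were 2, 1 for each gene, among 31042 probe sets that were no controls, and both were among the 15521 probe sets bright enough to be tested. The rats were male Sprague-Dawley animals that entered at 5 weeks of age, and each array held the RNA of 1 rat, with 4 rats in each of 4 groups. Rats labelled ZD ate a zinc-deficient diet (0.6 mg zinc per kg) for 10 days, and rats labelled PF were pair-fed a zinc-sufficient diet (30.0 mg per kg) over the same days. Rats labelled ZR had 10 days of the deficient diet and then 6 days of the sufficient diet. Rats labelled ZRPF had the sufficient diet for all 16 days, pair-fed at first, and in the last 6 days ZR and ZRPF rats both had a fixed ration of 13 g. Bottles with 300 mM NaCl, a concentrated salt solution, were offered in a preference test from day 6 to day 8 in all groups and again from day 14 to day 16 in ZR and ZRPF, so the ZR and ZRPF rats met salt up to the end and the PF and ZD rats did not. The submitters had picked rats near the average of their group by body weight, zinc in plasma and liking for salt and had dropped some recovery rats for their preference, so the spread between these rats is not that of all rats on a diet. The design compares deficiency with pair-feeding at day 10, the same after recovery, and the later with the earlier rats.

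Values are MAS5 signals, a linear brightness that the authors had scaled to 1 common mean per array, and they are also given as log2. The median signal per array ran from 156 to 172. Markers fixed for the tissue were present: 8 of the 11 hypothalamus markers on the array and 13 of 14 thalamus markers passed the filter on brightness (a mean signal of 163 over the 16 arrays). Arrays correlated with the others of their group at a mean Pearson r of 0.976 to 0.985 over the probe sets tested, lowest for ZD rats 8 and 9. In a bulk tissue such as this, fewer neurons that make a peptide and less RNA per neuron cannot be told apart.

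Both peptides are cut from larger precursors, each of which also holds a neurophysin, the carrier protein with which the hormone is packed into granules. Large (magnocellular) neurons of the supraoptic and paraventricular nuclei make them and release them from the posterior pituitary. Vasopressin makes the kidney retain water and is released when the blood becomes salty or its volume falls, and in the rat oxytocin is also released by salt loading and promotes sodium excretion. *Avp* is made in the suprachiasmatic nucleus, the clock of the hypothalamus, as well. The genes arose from a duplication and remain alike in the exon for the middle of neurophysin. The sequences of the array's probes were not used here, and whether a probe of one gene also bound the RNA of the other was not tested.

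The genes are neighbours on chromosome 3. In RefSeq's annotation of the rat assembly GRCr8, *Oxt* (gene 25504) lies at chr3:138235754-138236594 on the plus strand and *Avp* (gene 24221) at chr3:138246544-138248522 on the minus strand. The ends of the genes face each other over 9949 bases, in which the annotation lists 0 other genes. Their promoters thus point towards each other from the outer sides, and the 250 bases before each start are shown because the signals of the genes moved together across arrays, as described further on. Capitals mark the matches to the motifs searched. The first runs from chr3:138235504 to 138235753 (plus strand) and the second from chr3:138248523 to 138248772 (minus strand), both from 5′ to 3′.
Oxt: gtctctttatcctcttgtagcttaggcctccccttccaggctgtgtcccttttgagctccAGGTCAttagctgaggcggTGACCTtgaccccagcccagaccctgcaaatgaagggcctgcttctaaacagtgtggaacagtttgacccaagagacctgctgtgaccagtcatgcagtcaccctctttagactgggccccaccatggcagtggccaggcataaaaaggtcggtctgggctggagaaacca
Avp: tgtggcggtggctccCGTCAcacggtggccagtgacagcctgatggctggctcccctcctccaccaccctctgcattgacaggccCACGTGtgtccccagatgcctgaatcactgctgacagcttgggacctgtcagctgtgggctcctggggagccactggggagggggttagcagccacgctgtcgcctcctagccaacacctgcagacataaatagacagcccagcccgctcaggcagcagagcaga
Motifs were searched on both strands. The *Oxt* promoter held AGGTCA, the core of nuclear receptor sites, once as such (190 to 185 bases before the start) and once as its reverse complement TGACCT (171 to 166 bases before the start). At least 1 match was present in 14.1% of 33469 rat promoters of the same length. The *Avp* promoter held 1 CACGTG, the E-box bound by clock factors (165 to 160 bases before the start), which 5.59% of promoters hold, and 1 reverse complement of TGACG, the core of the cAMP response element (235 to 231 bases before the start), which 18.2% hold. Neither window held TGACGTCA, the full cAMP response element (1.59% of promoters). Neither held TGCACNC (10.3%) or TGCGCNC (11.8%), the cores of the metal response element through which zinc acts on metallothionein genes. A match is only a match of letters.

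*Oxt* was bright in every array. Its signal in the PF rats was 4000.1 in rat 1, 5624 in rat 2, 5608 in rat 4 and 4491 in rat 6. In the ZD rats it was 3695 in rat 2, 2869.8 in rat 3, 1922 in rat 8 and 6194 in rat 9. Of the ZD rats, 3 lay below every PF rat and rat 9 lay above every PF rat, so the groups overlapped. In the ZRPF rats the signal was 8385 in rat 2, 8172 in rat 4, 7334 in rat 5 and 7296 in rat 6. In the ZR rats it was 7031 in rat 7, 6315 in rat 10, 5518 in rat 13 and 6820.4 in rat 15. All ZRPF rats lay above all rats of the other groups. Among the probe sets tested, ZRPF rats lay above all PF rats in 12.0%, above all ZD rats in 9.88% and above all ZR rats in 1.58%. Mean log2 signals were 12.93 ± 0.10 (SD, n = 4) in ZRPF, 12.64 ± 0.16 in ZR, 12.25 ± 0.24 in PF and 11.71 ± 0.71 in ZD.

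*Avp* had the same order of group means. Its signal in the PF rats was 2828 in rat 1, 3356 in rat 2, 3265 in rat 4 and 2652 in rat 6. In the ZD rats it was 2665 in rat 2, 2637 in rat 3, 975 in rat 8 and 4698 in rat 9. ZD rats 2 and 3 lay within a few percent of the lowest PF rat, while rat 8 was far below and rat 9 far above all PF rats. In the ZRPF rats the signal was 4917 in rat 2, 3836 in rat 4, 4262 in rat 5 and 3951 in rat 6. In the ZR rats it was 3414 in rat 7, 3162 in rat 10, 3701 in rat 13 and 4097 in rat 15. Mean log2 signals were 12.04 ± 0.16 (SD, n = 4) in ZRPF, 11.80 ± 0.16 in ZR, 11.56 ± 0.16 in PF and 11.22 ± 0.94 in ZD. All 4 ZRPF rats lay above all 4 PF rats, and the other pairs of groups overlapped.

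**Figure D1:**
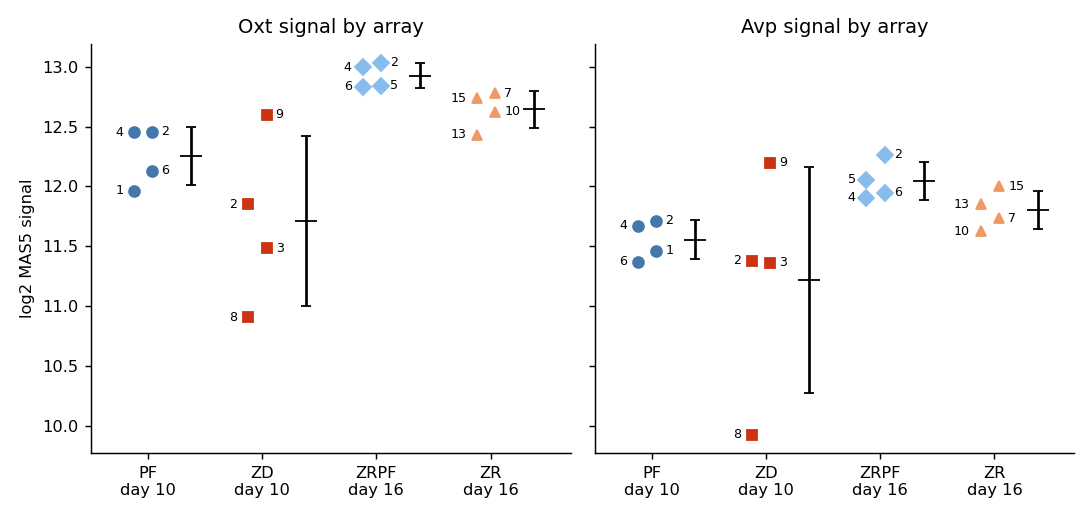
Log2 MAS5 signal of *Oxt* (left) and *Avp* (right) in each of 16 arrays (points, with the rat number), by group, with the group mean and SD (bars, n = 4). ZD rats 8 and 9 lie at opposite ends of their group for both genes, and the 4 ZRPF rats lie above the 4 PF rats in both panels.

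The ZD group stood out by its spread. The *Avp* signal differed 4.82-fold between the lowest and the highest ZD rat, against 1.27-fold in PF, 1.28-fold in ZRPF and 1.30-fold in ZR. For *Oxt* the range was 3.22-fold in ZD, 1.41-fold in PF, 1.15-fold in ZRPF and 1.27-fold in ZR. Among the 15521 probe sets tested, 99.7% had an SD between ZD rats no larger than that of *Avp* and 99.3% one no larger than that of *Oxt*, where the median SD was 0.15 on the log2 scale. In the PF rats the same shares were 69.9% and 88.2%. ZD rat 8 held the lowest signals of both genes among all 16 rats. It also held the lowest mean of the 8 tested hypothalamus markers, -0.28 as log2 relative to each marker's mean over all arrays. The other ZD rats had -0.10. Its log2 ratios of the 3 prime to the 5 prime control sets were the lowest too, for Gapdh (0.05) and beta-actin (1.37). This ratio is a sign of RNA integrity and labelling, and a low value means more 5 prime signal relative to 3 prime. The part of the control ratios in the low signals of ZD rat 8 was not tested. ZD rat 9, with the highest *Avp* of the 10-day rats, had a marker mean of -0.10 and a beta-actin ratio of 1.45.

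ZD against PF asks for effects of the zinc itself at equal food intake, and neither gene passed the threshold, an adjusted p under 0.05. All 16 arrays were fitted together with limma, and p values were adjusted over the 15521 probe sets. *Oxt* was lower in ZD by a log2 fold change of -0.54 ± 0.23 (SE; 95% interval -1.02 to -0.07), a ratio of 0.687, with an adjusted p of 0.581 in limma. Its difference was among the most negative of all, with 0.374% of the probe sets tested at or below it. By p, which takes the spread into account, *Oxt* ranked only 724 of 15521. *Avp* stood at -0.34 ± 0.29 (-0.94 to 0.26), with an adjusted p of 0.807. In this comparison 0 probe sets passed in limma (0%), and 1220 (7.86%) had an unadjusted p under 0.05. Exact two-sided permutation tests of 4 against 4 rats, whose smallest possible p is 0.0286, gave p = 0.229 for *Oxt* and p = 0.629 for *Avp*.

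Single rats decided the size of both values. Without ZD rat 8, *Avp* stood at 0.091 ± 0.16 (adjusted p = 0.859 in limma) and *Oxt* at -0.27 ± 0.18 (adjusted p = 0.593). Without ZD rat 9 they stood at -0.67 ± 0.24 (adjusted p = 0.594) and -0.84 ± 0.17 (adjusted p = 0.125). With both of these rats left out, a choice made after the data were seen, *Avp* stood at -0.18 ± 0.12 and *Oxt* at -0.58 ± 0.14 (adjusted p = 0.692 and 0.172). *Oxt* was thus below 0 in each of these fits, and *Avp* was not. With the hypothalamus marker mean as a covariate *Avp* stood at -0.73 ± 0.28 and *Oxt* at -0.83 ± 0.23 (adjusted p = 0.703 and 0.435 in limma). The slope of such a fit is taken from differences within groups, where ZD rat 8 held the lowest marker mean and the lowest signals. The fit was not repeated without this rat, so these values are not free of it. Choroid plexus markers, which come from tissue at the border of the diencephalon, stood above 0 in 5 of 5 tested members in ZD against PF, with list means of -0.95 to -0.40 in PF and -0.59 to 0.97 in ZD. None of the 5 passed, and their part in the values of *Oxt* and *Avp* was not tested.

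**Figure D2:**
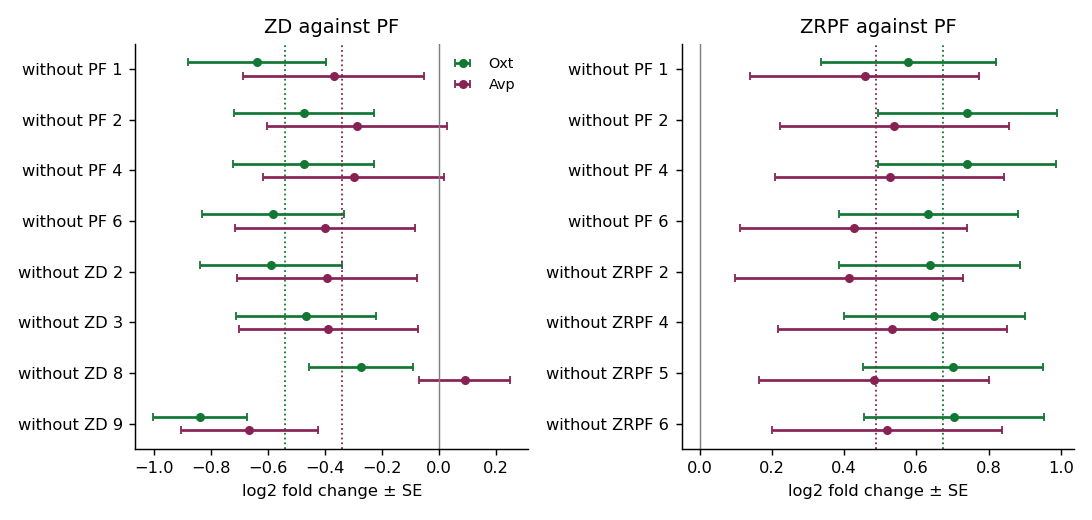
Log2 fold change of *Oxt* and *Avp* (points, with SE) when each array of the groups compared is left out, for ZD against PF (left) and ZRPF against PF (right). Dotted lines mark the values over all arrays. Leaving out ZD rat 8 moves *Avp* to 0.091 and leaving out ZD rat 9 moves it to -0.67, whereas in ZRPF against PF both genes stay above 0.4 in each case.

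After 6 days of zinc, *Oxt* lay lower in every ZR rat than in every ZRPF rat. The log2 fold change of ZR against ZRPF was -0.28 ± 0.23 (95% interval -0.76 to 0.19) and did not pass in limma (adjusted p = 0.945). The exact two-sided permutation test of the 4 against 4 rats gave its smallest possible p, 0.0286, and ZR rats lay below all ZRPF rats in 1.58% of the probe sets tested. The limma standard error shares the wide spread of the ZD rats. From the 8 arrays of this comparison alone it was 0.08 and the adjusted p was 0.915. *Avp* stood at -0.24 ± 0.29 (-0.84 to 0.36; adjusted p = 0.952), with 3 of 4 ZR rats below every ZRPF rat and an exact permutation p of 0.114. In limma 1 probe set passed in this comparison (0.00644%), which was neither gene.

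Averaged over both experiments, the difference of zinc-deprived from pair-fed rats was -0.41 ± 0.16 for *Oxt* (adjusted p = 0.659 in limma) and -0.29 ± 0.20 for *Avp* (adjusted p = 0.880), where 3 probe sets passed (0.0193%). Whether the difference changed with recovery was tested as the interaction, the difference after recovery minus that at day 10. It was 0.26 ± 0.32 for *Oxt* (95% interval -0.41 to 0.93, adjusted p = 0.880) and 0.10 ± 0.40 for *Avp* (-0.75 to 0.95, adjusted p = 0.972), with 0 probe sets past the threshold in limma (0%) and 1025 (6.60%) at an unadjusted p under 0.05. These intervals are wide enough to hold a full loss of the *Oxt* difference as well as a larger one. Without ZD rat 8 the interaction was -0.0092 for *Oxt* and -0.33 for *Avp*. With the hypothalamus mean as a covariate it was 0.62 ± 0.31 and 0.60 ± 0.38, short of the threshold. That fit took its slope within groups as well and was not repeated without ZD rat 8. With the thalamus mean the interaction was 0.31 ± 0.36 and 0.27 ± 0.45.

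**Figure D3:**
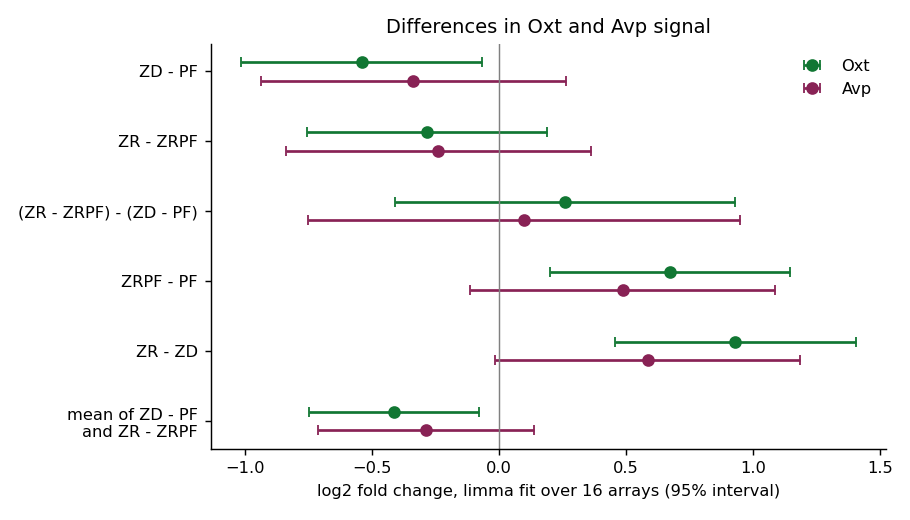
Log2 fold change of *Oxt* and *Avp* in 6 comparisons, from 1 limma fit over 16 arrays, with 95% intervals. Both genes lie below 0 in the zinc comparisons and above 0 in the later against the earlier rats, and *Oxt* in ZR against ZD (0.93) is the 1 value with an adjusted p under 0.05.

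The larger differences were between the experiments. *Oxt* rose in ZR against ZD by a log2 fold change of 0.93 ± 0.23, a ratio of 1.91 (95% interval 1.37 to 2.65), with an adjusted p of 0.00834 in limma. In this comparison 2692 probe sets passed (17.3%), 1422 of them higher (9.16%), and *Oxt* ranked 1152 of 15521 by p. Of the ZR rats 3 lay above every ZD rat, and the exact permutation test gave p = 0.0571. *Avp* stood at 0.59 ± 0.29 with an adjusted p of 0.170 and an exact permutation p of 0.257. Without ZD rat 9 *Avp* stood at 0.91 ± 0.24 and passed (adjusted p = 0.0183 in limma), without ZD rat 8 it stood at 0.16 ± 0.16 (adjusted p = 0.538), and without both it stood at 0.43 ± 0.12 (adjusted p = 0.0272). Over the fits that leave out 1 rat, *Oxt* ran from 0.66 to 1.23, with adjusted p from 0.000144 to 0.0253.

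In the rats that had never lacked zinc the same order was seen. *Oxt* stood at 0.67 ± 0.23 in ZRPF against PF (95% interval 0.20 to 1.15), a ratio of 1.59, and just missed the threshold (adjusted p = 0.0502 in limma), where 2430 probe sets passed (15.7%), 1475 of them higher (9.50%). *Avp* stood at 0.49 ± 0.29, a ratio of 1.40 (adjusted p = 0.267). For both genes all 4 ZRPF rats lay above all 4 PF rats, which held in that direction for 12.0% of the probe sets tested, and the exact permutation p was 0.0286, the smallest possible. The ZD rats entered this test only through the shared estimate of the spread. With the 8 arrays of PF and ZRPF alone, the standard errors were 0.10 for *Oxt* and 0.09 for *Avp* and both genes passed (adjusted p = 0.00151 and 0.00535 in limma). They also passed in the fit over the other 15 arrays without ZD rat 8 (adjusted p = 0.0117 for *Oxt* and 0.0324 for *Avp*), and *Oxt* did so without ZD rat 9 (0.00606; *Avp* 0.145).

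ZR against ZD also holds 6 days of zinc after the deficient diet. Both differences hold 6 more days of age and feeding, the second salt test and any difference in handling between the experiments, which cannot be told apart. The beta-actin ratio, a sign of RNA integrity and labelling, and the mean of the hypothalamus markers differed between the experiments as well. Whether dissection had a part in the marker mean was not tested. The log2 ratio of the 3 prime to the 5 prime beta-actin set was 1.49 to 1.73 in PF and 1.37 to 1.67 in ZD, but 2.05 to 2.48 in ZRPF and 2.05 to 2.20 in ZR. The mean of the 8 hypothalamus markers was -0.25 to -0.21 in PF and -0.28 to -0.10 in ZD, against 0.15 to 0.27 in ZRPF and 0.09 to 0.24 in ZR. In ZRPF against PF 8 of 8 stood above 0 (median 0.43) and 5 passed, against 15.7% of all probe sets tested. Those were *Gpx3* (0.80), an extracellular glutathione peroxidase, and *Nnat* (0.77), a small imprinted protein of neurons. The others were *Nkx2-1* (0.74), a transcription factor of the developing hypothalamus, *Hap1* (0.55), a partner of huntingtin, and *Hcrt* (0.30), the peptide orexin. *Pmch*, the precursor of melanin-concentrating hormone, stood at 0.09 ± 0.07 and did not pass. In ZR against ZD 8 of 8 stood above 0 as well (median 0.36) and 4 passed, against 17.3% of all probe sets tested. Choroid plexus markers stood above 0 in 5 of 5 tested members in ZRPF against PF (median 0.84) and in 2 of 5 in ZR against ZD (median -0.31), and 0 passed in either. The thalamus markers had overlapping means of -0.08 to 0.12 in PF and -0.06 to 0.11 in ZRPF. Their members moved both ways: in ZRPF against PF *Rorb*, a nuclear receptor, rose by 1.30 ± 0.32, and *Ramp3*, which accompanies peptide receptors, and *Synpo2*, an actin-binding protein, fell by 0.43 and 0.31 on the log2 scale, 3 of 13 in all. In ZR against ZD 11 of 13 stood above 0, and 2 passed, with *Rorb* at 1.38 and *Ramp3* at -0.54. Of all probe sets tested, 15.7% passed in ZRPF against PF and 17.3% in ZR against ZD. The counts of thalamus genes that passed are therefore not read as a result about that tissue. The thalamus and hypothalamus genes were named after their values were seen. The part of the beta-actin ratio and of the choroid plexus markers in the fitted differences was not tested. With the thalamus mean as a covariate *Oxt* stood at 0.98 ± 0.27 in ZR against ZD and passed (adjusted p = 0.0259 in limma), and it stood at 0.67 ± 0.23 in ZRPF against PF (adjusted p = 0.0578), while *Avp* stood at 0.74 ± 0.34 and 0.47 ± 0.29 and did not pass. With the hypothalamus mean as a covariate *Oxt* stood at -0.15 ± 0.47 in ZR against ZD and at -0.76 ± 0.60 in ZRPF against PF, and *Avp* at -0.91 ± 0.57 and -1.50 ± 0.73, none past the threshold. That mean did not overlap between the experiments, so such a fit hardly separates it from them.

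**Figure D4:**
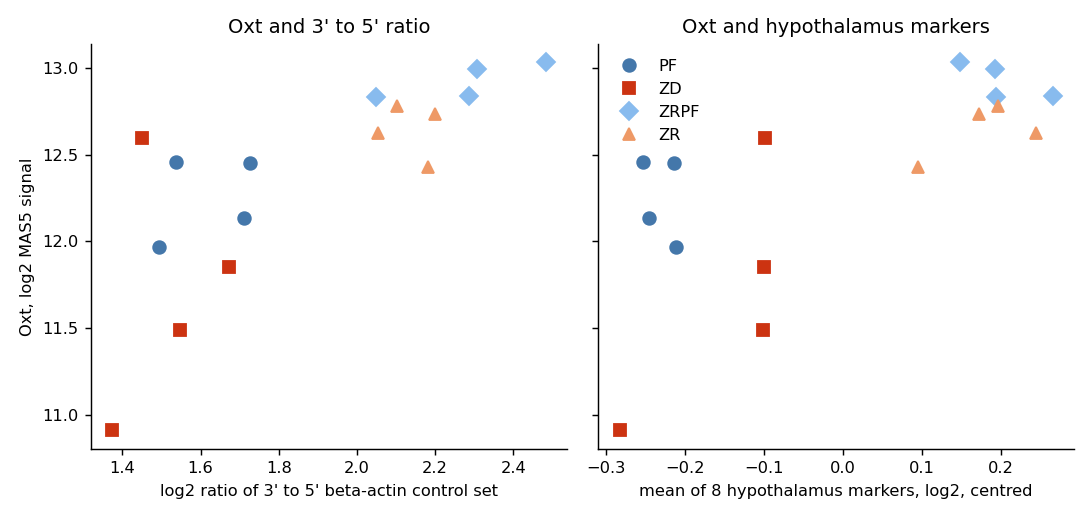
Log2 *Oxt* signal of 16 arrays against the log2 ratio of the 3 prime to the 5 prime beta-actin control set (left) and against the mean of 8 hypothalamus markers (right, log2 relative to the mean over arrays). The 10-day arrays (PF, ZD) and the 16-day arrays (ZRPF, ZR) do not overlap on either horizontal axis.

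Within an experiment, 8 relations of these measures with the peptides were computed, and none passed after adjustment. Over the 8 10-day arrays Pearson r of the hypothalamus mean was 0.51 with *Avp* (rho 0.36, exact permutation p = 0.202 for r and 0.389 for rho) and 0.17 with *Oxt* (rho 0.21, exact permutation p = 0.694 and 0.619). Without ZD rats 2 and 9, the arrays farthest from the median, r was 0.40 and -0.035 over 6, with ZD rat 8 of lowest mean still among them. Over the 8 16-day arrays it was -0.22 with *Avp* (rho -0.21, exact permutation p = 0.607 and 0.619) and 0.28 with *Oxt* (rho 0.071, exact permutation p = 0.504 and 0.882). Without ZRPF rat 5 and ZR rat 13 these turned to -0.93 and -0.71 over 6, so that no direction can be read from them.

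The beta-actin ratio correlated with *Avp* over the 16-day arrays at r = 0.82 (rho 0.64, exact permutation p = 0.0143 and 0.0962, or 0.0633 and 0.192 after Benjamini-Hochberg adjustment over the 14 relations computed here), and at 0.85 over 6 without ZRPF rats 2 and 6. With *Oxt* the 16-day value was 0.60 (rho 0.64, exact permutation p = 0.113 and 0.0962), and 0.57 over 6 without the same rats. Over the 10-day arrays the ratio gave 0.37 with *Avp* and 0.42 with *Oxt* (rho 0.024 and 0.14, exact permutation p = 0.418 and 0.303 for r and 0.977 and 0.752 for rho). Both turned negative without PF rat 4 and ZD rat 8, to -0.68 and -0.33 over 6.

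*Avp* and *Oxt* followed each other across arrays. Over 16 arrays r was 0.90 and rho 0.85 (permutation p = 1e-05, the smallest that 100000 resamples can give, and 4e-05; adjusted 0.00014 and 0.00056). Without the arrays farthest from the median of *Avp*, ZD rat 8 and ZRPF rat 2, r was 0.81 over 14. Within the 10-day experiment r was 0.91 and rho 0.93 (exact permutation p = 0.000372 and 0.00223, adjusted 0.00260 and 0.0156), and without ZD rats 8 and 9 r was 0.84 over 6. Within the 16-day experiment r was 0.60 and rho 0.67 (exact permutation p = 0.116 and 0.0831, adjusted 0.232 and 0.192), and without ZRPF rat 2 and ZR rat 10 it was 0.25 over 6. With values permuted across the groups, the relation thus passed in the 10-day rats and not in the 16-day rats. Permuted within groups, it passed in neither after adjustment, as given next. The difference between the experiments was not tested.

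With each value taken as its deviation from the group mean, r was 0.89 and rho 0.64 over 16 arrays, with values permuted within groups (permutation p = 0.0212 and 0.0163, adjusted 0.0633 and 0.0761). Without ZD rats 8 and 9 it fell to 0.38 over 14 arrays, so that the relation between rats of 1 group rested on those rats. Within the 10-day rats it was 0.93 (rho 0.79, exact permutation p = 0.0226 and 0.0382, adjusted 0.0633 and 0.134), and 0.59 without the same rats. Within the 16-day rats it was 0.18 (rho 0.21, exact permutation p = 0.679 and 0.658), and -0.59 without ZRPF rat 2 and ZR rat 15.

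**Figure D5:**
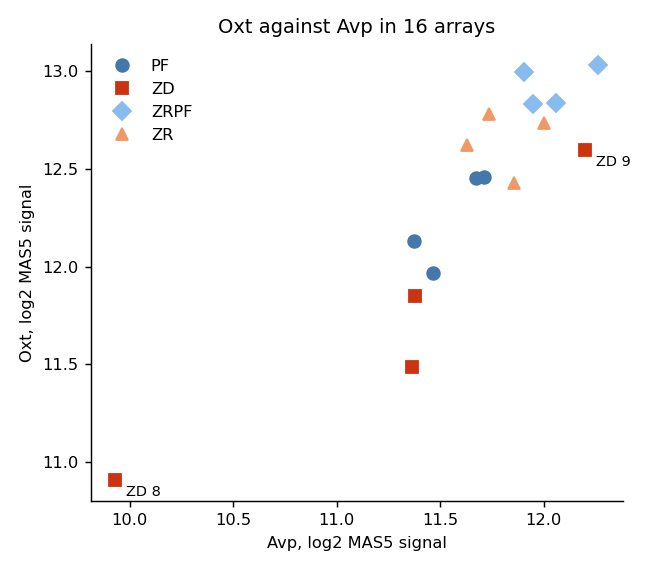
Log2 signal of *Oxt* against *Avp* in 16 arrays, by group. The 10-day arrays spread along a line between ZD rat 8 at the lower left and ZD rat 9 near the upper right (r = 0.91 over 8 arrays), and the 16-day arrays lie together at the upper right (r = 0.60 over 8).

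By the same deviations over 16 arrays, given as a description, *Avp* was the probe set most like *Oxt* of 15520 compared (r = 0.89), and *Oxt* was the third most like *Avp*. The other genes most like *Avp* were *Prkar1b*, a regulatory subunit of protein kinase A (0.90), *Gabarap*, a protein of autophagy and receptor trafficking (0.90), *Mrpl23*, of the mitochondrial ribosome (0.87), and *Gnb2*, a G protein beta subunit (0.86). Those most like *Oxt* were *Usp11*, a ubiquitin protease (0.89), *Cetn2*, a centrin (0.87), *Ankrd34a* (0.87) and *Mrpl23* (0.87). All these values share the ZD rats 8 and 9. Over the 12 arrays without the ZD group they ran from 0.24 for *Mrpl23* with *Avp* to 0.78 for *Ankrd34a* with *Oxt*, and *Avp* with *Oxt* had 0.49.

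Whether *Oxt* moved by more than *Avp* was asked of the difference of their log2 signals in each array, a comparison added after the data were seen. The level of this difference depends on the probes, and only its change between groups can be read. It was 0.70 ± 0.13 (SD, n = 4) in PF, 0.49 ± 0.36 in ZD, 0.88 ± 0.15 in ZRPF and 0.84 ± 0.22 in ZR. The change was -0.20 in ZD against PF (exact permutation p = 0.314), -0.04 in ZR against ZRPF (p = 0.743), 0.19 in ZRPF against PF (p = 0.0571) and 0.34 in ZR against ZD (p = 0.143), all of 4 against 4 rats. None of these passed, so a larger change of *Oxt* than of *Avp* was not resolved with 4 rats a group.

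For the order of the levels, 2 further pairs of groups were compared by exact permutation, a choice made after the data were seen. *Oxt* was higher in ZRPF than in ZD in all rats (difference 1.21, exact permutation p = 0.0286), and in ZR against PF the difference was 0.39 (exact permutation p = 0.0857). *Avp* gave 0.83 (exact permutation p = 0.114) and 0.25 (exact permutation p = 0.114). Of neighbours in the order ZRPF, ZR, PF, ZD, the rats were separate for *Oxt* in the first step and overlapped in the others, and for *Avp* they overlapped in all 3 steps.

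The receptors gave signals near the bottom of the scale. The vasopressin receptors *Avpr1a*, *Avpr1b* and *Avpr2* and the oxytocin receptor *Oxtr* were on the array, and all 4 lay below the filter (a signal of 163). *Avpr1a*, the receptor of vessels, liver and brain, had signals of 34.0 to 92.4 over the 16 arrays. *Avpr1b*, of the pituitary, had at most 65.6, and *Avpr2*, of the kidney, had 13.3 to 56.0. *Oxtr* had 0.782 to 6.31. The ZR rats had 34.0 to 59.3 for *Avpr1a* and the ZRPF rats 62.2 to 92.4, a pair of groups picked after the values were seen. Of the probe sets tested, 1.58% had all ZR rats below all ZRPF rats. At the signals of the receptors no change was tested. Of 12 tested genes for the steps after these receptors, 0 passed in ZD against PF or in ZR against ZRPF. In ZRPF against PF *Arrb2*, an arrestin (0.49 ± 0.11), and *Grk2*, a receptor kinase (0.39 ± 0.12), rose, which is 2 of 12 against 15.7% of all probe sets tested, and both were named after their values were seen. The median of the 12 was -0.09 there, against -0.01 over all probe sets tested. *Rgs4*, which shortens G protein signals, had the smallest p of the list in ZD against PF (-0.33 ± 0.12, adjusted p = 0.503 in limma).

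The enzymes and granule proteins through which both precursors pass were mostly bright. Of 13 tested, 0 passed in ZD against PF and 0 in ZR against ZRPF, with medians of 0.00 and -0.01. The smallest p belonged to *Chgb*, a granin (-0.08 ± 0.05), and *Pcsk2*, a convertase that cuts prohormones (0.17 ± 0.13), in ZD against PF. In ZR against ZRPF it belonged to *Cpe*, the carboxypeptidase that trims the cut peptides (-0.15 ± 0.09), and *Pam*, which amidates their ends (-0.09 ± 0.06). In ZRPF against PF *Pcsk1n*, an inhibitor of a convertase, rose by 0.73 ± 0.09 and *Stx1a*, a protein of vesicle fusion, by 0.64 ± 0.13. They were 2 of 13, where 15.7% of all probe sets tested passed, and were named after their values were seen. Both rose in ZR against ZD as well (0.66 ± 0.09 and 0.53 ± 0.13), where 17.3% of all probe sets tested passed.

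Of 13 transcription factors and regulators of magnocellular neurons on the array, 7 were tested, while *Sim1*, *Otp* and *Pou3f2*, which specify these neurons, lay below the filter. None passed in ZD against PF or ZR against ZRPF. *Crebbp*, a coactivator of the cAMP response, stood at -0.20 ± 0.08 in ZD against PF. *Rasd1*, a small G protein of stress and salt responses in these nuclei, stood at -0.23 ± 0.11 in ZD against PF, and *Caprin2*, which binds the *Avp* messenger, at 0.02 ± 0.12. In ZRPF against PF *Nr3c1*, the glucocorticoid receptor, fell by 0.48 on the log2 scale, and in ZR against ZD *Creb1*, a factor of the cAMP response, rose by 1.16 ± 0.30. Each was the 1 of 7 to pass there, where 15.7% of all probe sets tested passed in ZRPF against PF and 17.3% in ZR against ZD. *Nr3c1*, *Creb1* and *Caprin2* were named after their values were seen.

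Of 15 tested peptides and transmitter enzymes known from the same nuclei, 0 passed in ZRPF against PF, a comparison in which 15.7% of all probe sets tested did. Their median was 0.01, with 8 above 0 and 7 below, and *Crh*, the releasing hormone of the stress axis, stood at -0.03 ± 0.12 and *Pdyn*, the dynorphin precursor that vasopressin neurons also make, at -0.06 ± 0.16. In ZR against ZD *Apln*, the peptide apelin, rose by 0.43 ± 0.13 and *Nucb2*, the nesfatin precursor, fell by 0.41 on the log2 scale. They were 1 higher and 1 lower of 15, where 17.3% of all probe sets tested passed. *Crh*, *Pdyn* and *Nucb2* were named after their values were seen. In ZD against PF 0 of 15 passed, with *Apln* at -0.36 ± 0.13, *Cartpt* at 0.32 ± 0.13 and *Gal* at -0.31 ± 0.14 as those of smallest p, and 0 passed in ZR against ZRPF. Whether these genes differed in their change from *Oxt* was not tested.

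Of 4 tested markers of the suprachiasmatic nucleus, *Vip*, its vasoactive intestinal peptide, fell by 0.44 on the log2 scale in ZRPF against PF (adjusted p = 0.0167 in limma), where *Avp* was on the higher side. *Vip* stood at -0.34 ± 0.12 in ZD against PF (adjusted p = 0.493 in limma). The list as a whole did not fall: 2 of the 4 stood above 0 and 2 below in ZRPF against PF. In ZD against PF 3 stood above 0 and 1 below, with a median of 0.05. Of 7 tested genes of osmotic and salt sensing, *Slc12a5*, a chloride exporter of neurons, rose in ZRPF against PF by 0.33 ± 0.07 and *Slc12a2*, a chloride importer, fell by 0.26 on the log2 scale. In ZR against ZD *Scn7a*, the sodium channel that senses salt, rose by 0.53 ± 0.17 and *Slc12a5* by 0.25 ± 0.07. In ZD against PF *Scn7a* stood at -0.38 ± 0.17 (adjusted p = 0.615), and in ZR against ZRPF *Agt*, the precursor of angiotensin, stood at -0.15 ± 0.09, and 0 of the 7 passed in either. The genes named for the later against the earlier rats were chosen after their values were seen. Of all probe sets tested, 15.7% passed in ZRPF against PF and 17.3% in ZR against ZD. In ZRPF against PF 1 of the 4 nucleus markers passed, and 1 higher and 1 lower of the 7 salt genes. In ZR against ZD 2 of the 7 salt genes passed. With so few members, no response of either list can be read from these counts.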

How the data were processed

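Total RNA of 16 diencephalons was labelled with a 3 prime kit, per the labels' protocols, and measured on 1 Affymetrix rat array each. The deposited values are linear signal intensities per probe set, which the authors made with MAS5, per the submitters' processing notes (version not given in the sources used here). The trimmed mean signal (2% removed at each end) was 500.14 to 500.15 on each array. Log2 of the signals was used as it stood. Of 31099 probe sets, 57 controls were set aside, and 15521 with a mean log2 signal at or above the median of 7.35 were tested. Gene names came from the platform annotation, updated by gene identifier through the RefSeq table of GRCr8: 20826 probe sets had 1 gene, 436 several and 9780 none. A gene with several probe sets was read from its brightest.

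All groups entered 1 fit, with 6 contrasts and a trend on intensity (limma 3.58.1, R 4.3.3), and p values adjusted by Benjamini-Hochberg (threshold 0.05). The number of rats limits the precision. Exact permutation tests and correlations used Python 3.11.15. Promoter sequences came from RefSeq (GRCr8). The members, gene lists and tests were chosen with earlier results of these data known. Lists covered receptors and their signalling, peptide processing, magnocellular regulators, peptides of the same nuclei, salt sensing, immediate early genes, and markers of the suprachiasmatic nucleus, hypothalamus, thalamus, choroid plexus, pituitary and telencephalon. Named were the members, the receptors, in each list up to 3 genes of smallest p in ZD against PF and up to 2 in ZR against ZRPF, and the 5 genes most like each member. From these a selection is given, and genes named otherwise are said to be so. The fit was first tested on simulated signals with known changes. Alternatives were quantile normalization, median centring, no filter or a stricter one, an offset of 32, no trend, array weights, own arrays, marker covariates, a replicate block, each rat left out, and, added later, ZD rats 8 and 9 left out. P values measure the spread between rats picked as average.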

Additional observations from a re-analysis of the deposited data

Results flagged for a closer look

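In a group of 4 rats an array was set apart by Dixon's 95% criterion, which takes its gap to the nearest other rat relative to the range of the group and which chance gives in about 1 of 20 groups. The criterion was applied to each of the 4 groups for *Avp*, *Oxt*, their log2 difference, genes named from the lists and the hypothalamus marker mean. Other list means and the control ratios were not screened. In all, 8 values were set apart, with ZR rat 15 among them for both *Cartpt* and *Scn7a*. With so many groups screened, several such values are expected by chance, so the 8 are given as a description only. For the log2 difference of *Oxt* and *Avp*, PF rat 1 had 0.50 and the other PF rats 0.74 to 0.78. The mean of the hypothalamus markers was -0.28 in ZD rat 8 and -0.10 in the other ZD rats. *Avpr1a* had a log2 signal of 6.53 in ZRPF rat 6 and 5.96 to 6.04 in the other ZRPF rats, all below the filter. *Pcsk2* had 9.03 in ZR rat 13 against 8.60 to 8.66, and *Cartpt* 11.22 in ZR rat 15 against 10.91 to 10.95. *Scn7a* had 9.92 in ZR rat 15 against 10.09 to 10.11. *Hcrt* had 10.31 in ZRPF rat 2 against 10.38 to 10.39, and *Pmch* 13.29 in ZD rat 3 against 13.18 to 13.20. The *Avp* and *Oxt* signals themselves set no array apart by this measure, since ZD rats 8 and 9 lay on opposite sides.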

How the results depend on the processing

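In ZR against ZRPF, in the average of both zinc differences and in *Oxt* for ZD against PF, the members kept their direction and stayed short of the threshold under every alternative run. *Oxt* in ZRPF against PF passed with a stricter filter on brightness (0.67, adjusted p = 0.0473 in limma), an offset of 32 (0.67, 0.0487), array weights (0.66, 0.0173), its own arrays (0.67, 0.00151) and without ZD rats 8 and 9 together (0.67, 0.000653), and by leaving out 1 rat it ran from 0.58 to 0.74 (0.00606 to 0.137). *Avp* there passed with its own arrays (0.49, 0.00535) and without both ZD rats (0.49, 0.00220), and ran from 0.41 to 0.54 by leaving out 1 rat. With the hypothalamus covariate *Avp* turned to -1.50 and *Oxt* to -0.76 in ZRPF against PF, and to -0.91 and -0.15 in ZR against ZD, with 3 and 66 probe sets past the threshold. With that covariate *Avp* and *Oxt* stood at -0.73 and -0.83 in ZD against PF and at 0.60 and 0.62 in the interaction. The covariate fits were not repeated without ZD rat 8. *Avp* in ZR against ZD passed without both ZD rats (0.43), ran from 0.16 to 0.91 by leaving out 1 rat, and 1572 probe sets then passed without both. Leaving out 1 rat, *Avp* in ZD against PF ran from -0.67 to 0.091 and the interaction from -0.33 to 0.43 for *Avp* and from -0.0092 to 0.55 for *Oxt*. Without both ZD rats the *Avp* interaction was -0.055. The cause of these shifts was not tested, except that own arrays and fits without a ZD rat left out its spread.

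In ZR against ZRPF the count of probe sets past the threshold was 0 in place of 1 with quantile normalization, no filter, a stricter filter, no trend, own arrays or either covariate, and 0 to 9 by leaving out 1 rat. For the average it was 0 in place of 3 with quantile normalization, no filter, a stricter filter, no trend, either covariate or without both ZD rats, and 0 to 5 by leaving out 1 rat. In ZD against PF it was 1 without both ZD rats and 0 to 3 by leaving out 1, and for the interaction 0 to 1. The correlation of *Avp* and *Oxt* ran from 0.83 to 0.93 by leaving out 1 rat.

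PF and ZRPF share the rat numbers 2, 4 and 6, whose deviations correlated at 0.08, 0.02 and 0.04, so the numbers were not taken as pairs. With the replicate block *Oxt* stood at 0.67 (adjusted p = 0.0680), *Avp* at 0.49 (0.312) and 2239 probe sets passed. For the other comparisons no paired analysis was possible because the groups share fewer than 2 numbers.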

Other observations

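Markers of tissue and cells near the magnocellular nuclei were read from the same fit. Of 9 anterior pituitary markers on the array, 1 lay above the filter, *Cga*, the common subunit of glycoprotein hormones, at -0.55 ± 1.02 in ZD against PF. *Gh1*, *Prl* and *Pomc* lay below it. Of the 5 tested immediate early genes and the 3 tested telencephalon markers, 0 passed in any of the 4 comparisons between groups. Among the former *Nr4a3* stood at -0.52 ± 0.22 in ZD against PF and *Egr1* at 0.36 ± 0.17. In ZD against PF the thalamus list had 11 of 13 tested members below 0, with a median of -0.13 against 0.01 over all probe sets tested, and 0 passed.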
